A study of Rattus norvegicus with 2 samples.

Results

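Iron handling in cultured neonatal rat heart cells was described through 8 of the 25399 gene identifiers listed in the deposited tables: hepcidin (*Hamp*), ferroportin (*Slc40a1*), transferrin receptor (*Tfrc*), ferritin heavy chain (*Fth1*), lipocalin 2 (*Lcn2*), the metal transporters *Slc39a14* and *Slc11a2*, and heme oxygenase 1 (*Hmox1*). The genes were taken by symbol and selected on their levels by cluster and library, which were already known, so the values are a description and no test was made on them. The cells came from the hearts of Sprague-Dawley rats aged 1 to 3 days, pooled from males and females, and were enriched on a Percoll gradient for intrinsic cardiac adrenergic (ICA) cells, which are heart cells that make catecholamines. After plating, the control group received saline and the LPS group received lipopolysaccharide, a cell wall component of gram-negative bacteria, at 1 µg/mL, both for 2 h. Each group was sequenced as 1 single-cell library, so there are no replicates and no p-values, and a difference between the groups cannot be told apart from a difference between the libraries. By the study's methods the harvested gradient band was that of cells other than ventricular myocytes, with some cardiomyocytes, and the cells were treated in culture, away from liver and spleen.

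Iron enters most cells bound to transferrin through the transferrin receptor, is carried across membranes by metal transporters such as DMT1 (*Slc11a2*) and ZIP14 (*Slc39a14*), and is stored in ferritin. It leaves cells through ferroportin, the only known cellular iron exporter. Hepcidin is a peptide hormone, made mainly in the liver, that binds ferroportin and causes its breakdown, and its transcription is raised by bone morphogenetic protein (BMP) and interleukin 6 signals. Hepcidin is also made in the heart, where it is known to act on ferroportin of the cardiomyocytes themselves.

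Counts are unique molecular identifiers (UMIs), which count single RNA molecules. A level is the sum of a gene's UMIs over the cells of a cluster, per 1000000 UMIs of that cluster (CPM), and ratios are LPS over control. All intervals are exact at 95% and cover counting error only. The control library held 11531 cells with a median of 12479 UMIs, and the LPS library 12689 cells with a median of 9432. The authors' clusters 0, 1 and 7 were named fibroblasts, 4 and 5 endothelial cells, 6 macrophages and 3 ICA cells and cardiomyocytes, and 4 clusters (2, 8, 9 and 10) were left without a name. Cluster 3 had the highest summed level of 7 cardiomyocyte markers, at 7015 and 7408 CPM in control and LPS. It also had the highest of the 3 ICA markers, at 75.0 and 81.7 CPM. These rested on 180 and 136 UMIs of *Dbh* and 351 and 312 of *Ddc*, but *Th* had 0 UMIs there in both libraries. Erythroid markers summed to 146 CPM in control and 9.49 in LPS cells of cluster 3 and to 198 and 11.3 CPM in macrophages, with 953 of 1036 control UMIs in 2 cells and 570 of 617 in 1 cell. The median share of mitochondrial UMIs was 17.9% and 17.3% in cluster 3 and 14.0% and 12.6% in cluster 9. In cluster 0 it was 3.37% and 2.94%. These UMIs are part of each cluster's total, so they lower the CPM of other genes in clusters 3 and 9. Leaving out cells with more than 20% would keep 550 control and 639 LPS cells of cluster 3. The libraries shared 194 barcodes, 1.68% of the control cells.

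The sequence before the start site of *Hamp* is shown because it holds matches to response elements of the signals known to drive hepcidin, and that of *Lcn2* because it holds a match to the κB consensus. In all, 6 motifs were searched on both strands in the 250 bases before RefSeq start sites of the rat build GRCr8: the κB consensus of NF-kappaB, a STAT-like palindrome (TTCNNNGAA), the BMP response element (GGCGCC), the core of the antioxidant response element (TGACNNNGC), AP-1 (TGANTCA) and a C/EBP-like motif (TTGCNNAA). The AP-1 and antioxidant motifs can overlap, since both may begin with TGA. Among 33469 such windows, 3.54% held the κB consensus, 7.67% the STAT-like palindrome, 8.69% the BMP response element, 10.1% the antioxidant core, 6.34% AP-1 and 9.22% the C/EBP-like motif. Windows were at hand for 5 of the 8 genes, without *Fth1*, *Slc39a14* and *Hmox1*, and 6 windows in all. Below are those of *Hamp* (chr1:95300272-95300521, minus strand) and of *Lcn2* (chr3:36081781-36082030, minus strand), written 5′ to 3′ along the gene up to the base before its start, with all motif matches in capitals.
Hamp: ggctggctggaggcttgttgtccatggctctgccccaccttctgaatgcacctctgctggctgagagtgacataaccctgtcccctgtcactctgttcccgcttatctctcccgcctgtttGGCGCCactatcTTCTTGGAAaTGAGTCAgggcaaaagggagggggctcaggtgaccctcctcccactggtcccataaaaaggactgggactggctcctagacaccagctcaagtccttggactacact
Lcn2: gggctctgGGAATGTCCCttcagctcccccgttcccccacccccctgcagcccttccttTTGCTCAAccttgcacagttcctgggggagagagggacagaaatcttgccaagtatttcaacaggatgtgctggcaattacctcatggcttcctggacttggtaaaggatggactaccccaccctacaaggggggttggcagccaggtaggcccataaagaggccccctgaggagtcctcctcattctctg
In *Hamp* the BMP response element GGCGCC lay 129 to 124 bases before the start, the STAT-like match TTCTTGGAA 117 to 109 bases before it and the AP-1 match TGAGTCA 107 to 101 bases before it. These 3 motifs together, a combination chosen after the *Hamp* window had been read, were held by 2 of the 33469 windows, that of *Hamp* included. No rarity of the *Hamp* window is read from this count. In *Lcn2* the matches were to the κB consensus, on the other strand (GGAATGTCCC), and to the C/EBP-like motif (TTGCTCAA). *Tfrc* held 1 match, to GGCGCC, and the windows of *Slc40a1* and *Slc11a2* held none. A match is a run of letters, and binding was not measured.

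*Hamp*, the hormone gene, was a transcript of cluster 3. Its level there was 119 CPM (111 to 128) in control cells, from 845 UMIs in 836 cells, and 249 CPM (236 to 263) in LPS cells, from 1366 UMIs in 929 cells. The LPS level was higher by a ratio of 2.09 (1.91 to 2.28), and by 1.06 on the log2 scale without cells of 10 or more erythroid UMIs. Without the 8% of cells with the most UMIs the difference was under 2-fold, as given below. Cluster 3 held 81.8% of all control *Hamp* UMIs with 4.64% of the control UMIs of all genes, and 79.0% with 4.30% in LPS. Next in order was cluster 9, a small unnamed cluster whose fibroblast markers summed to 17272 and 14504 CPM, the highest of all clusters, and whose cardiomyocyte markers summed to 1156 and 1309 CPM, where *Hamp* read 8.89 CPM (2.42 to 22.8) from 4 control UMIs and 50.1 CPM (27.4 to 84) from 14 LPS UMIs. Among the other clusters numbered 0 to 8, *Hamp* lay between 0.90 and 2.06 CPM in control and between 1.32 and 3.69 CPM in LPS, and the interval of the ratio between each pair of neighbours in that order included 1.

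The low *Hamp* values outside cluster 3 were set beside those of cardiomyocyte markers, since free RNA in the droplets gives UMIs in cells that do not express a gene. In clusters 0, 1, 2 and 4 to 8, *Hamp* was at 0.754% to 1.72% of its cluster 3 level in control and at 0.528% to 1.48% in LPS. The median of the 7 cardiomyocyte markers in the same clusters was 1.38% to 3.57% of cluster 3 in control and 1.13% to 2.07% in LPS. In the fibroblasts of cluster 0, *Hamp* was at 1.02% and 1.14% and the marker median at 1.57% and 1.22%. In the fibroblast clusters 0 and 1, *Hamp* was below the marker median in both libraries. Although its cluster 0 ratio was 2.33 (1.84 to 2.96), no expression in fibroblasts is read from it. In the fibroblasts of cluster 7 it was at 1.72% beside a marker median of 1.38% in control, on 3 UMIs. In LPS it was at 0.528% beside 1.13% there, on 2 UMIs. In the unnamed cluster 2, *Hamp* was at 1.25% beside 1.77% in control, on 14 UMIs. It was above the marker median there in LPS, at 1.48% beside 1.39%, on 31 UMIs. The part of free RNA in these *Hamp* values was not tested.

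Within cluster 3, *Hamp* was spread unevenly over the cells. After each cell was thinned to 3000 UMIs, 22.2% (19.5 to 25.2) of 836 control cells and 36.9% (33.8 to 40.1) of 926 LPS cells had a *Hamp* UMI, against 0.348% and 0.783% of cluster 0 cells. Median depths were 7526 and 5269 UMIs in cluster 3 and 12968 and 9822 in cluster 0, and without thinning the cluster 3 shares were 44.1% and 51.5%. Also without thinning, the number of cells with 10 or more UMIs was 6 in control and 22 in LPS. The highest cell held 21 and 31, beside 12 and 14 after thinning. The 10% of cells with the most *Hamp* UMIs, 84 and 93 cells, held 51.6% and 53.3% of the cluster's *Hamp* UMIs, not thinned. The part of counting error and of unequal depth in these shares was not tested. Cells of cluster 3 with a UMI of *Dbh*, the enzyme that makes norepinephrine and an ICA marker, had 107 CPM (91.2 to 126) of *Hamp* in control and 245 CPM (210.0 to 283) in LPS. Cells without one had 122 CPM (114 to 132) and 249.9 CPM (236 to 265), so the intervals overlapped in both libraries. The cells with a *Dbh* UMI, 156 in control and 121 in LPS, were not thinned. They are not the ICA subcluster that the paper separated within cluster 3. No comparison of ICA cells with cardiomyocytes is read from these values.

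**Figure D1:**
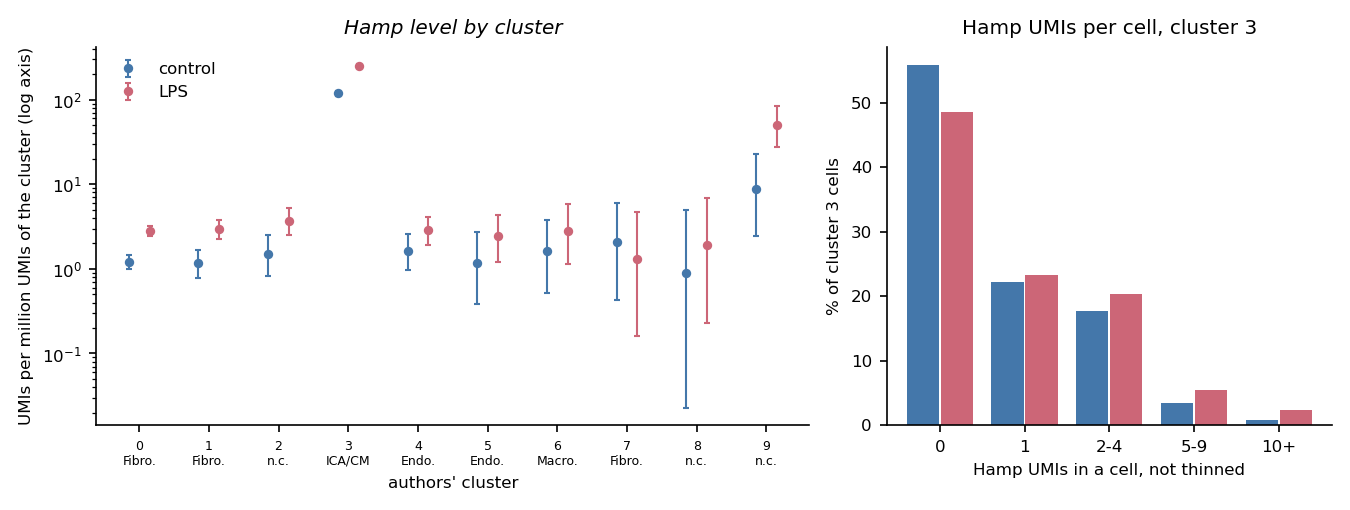
*Hamp* in the control (blue) and LPS (red) libraries. Left: UMIs per 1000000 UMIs of each of the authors' clusters 0 to 9, on a log axis, with exact 95% Poisson intervals; n.c. marks clusters the authors left without a name, and ICA/CM is ICA cells and cardiomyocytes. Right: the share of cluster 3 cells by their number of *Hamp* UMIs, not thinned. Cluster 3 stands at 119 and 249, and 6 control and 22 LPS cells had 10 or more UMIs.

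In thinned cluster 3 cells, those with a *Hamp* UMI were set beside those without one in each library, as a description of cells of 1 library. Among 7 cardiomyocyte markers, the interval of the ratio lay above 1 for 4 in control (*Tnnt2*, *Tnni3*, *Actc1* and *Casq2*) and for 0 in LPS, and below 1 for 0 in both. *Tnnt2*, cardiac troponin T, stood at 1.13 (1.08 to 1.18) in control and 1.02 (0.987 to 1.06) in LPS, and *Trdn*, triadin, at 0.879 (0.608 to 1.24) and 0.984 (0.726 to 1.32). Among 8 fibroblast markers, the interval lay below 1 for the same 4 in both libraries (*Col1a1*, *Col3a1*, *Dcn* and *Postn*) and above 1 for 0, with *Col1a1* at 0.821 (0.75 to 0.896) and 0.855 (0.79 to 0.925). Among 6 endothelial markers, it lay above 1 for *Tie1* in LPS only, at 2.68 (1.31 to 5.67). Of the erythroid markers, *Hba-a2*, at 0.0772 (0.0308 to 0.161), and *Hbb* lay below 1 in control and 0 in LPS. Most control erythroid UMIs of the cluster sat in 2 cells, as given above. The intervals of the ICA markers *Dbh* and *Ddc* included 1 in both libraries. Another 5 cardiac genes were picked after seeing the data. Of these, *Nppa*, the atrial natriuretic peptide, stood at 1.27 (1.19 to 1.35) and 1.54 (1.46 to 1.62). *Myl7*, a myosin light chain, stood at 1.19 (1.0 to 1.41) and 1.31 (1.13 to 1.52). The intervals of *Nppb*, *Myl4* and *Myl2* included 1 in both libraries. *Myl4*, also a myosin light chain, stood at 1.32 in control and on the other side of 1 in LPS, at 0.959. *Nppb* stood at 1.14 and 1.06, and *Myl2* rested on 3 UMIs or fewer in each group of cells. For the other 7 iron genes the interval of this ratio included 1 in both libraries, with *Tfrc* at 1.19 (0.816 to 1.72) and 1.1 (0.809 to 1.48) and *Fth1* at 1.01 (0.975 to 1.05) and 1.02 (0.985 to 1.05).

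*Slc40a1*, the exporter that hepcidin targets, was lower in LPS in every cluster where it could be read. There are 2 identifiers that carry this symbol, and all UMIs were on ENSRNOG00000003872. In control cells its level was highest in macrophages, which export the iron of digested red cells, at 36.6 CPM (30.2 to 44) from 114 UMIs. In the LPS library the macrophage level was 7.64 CPM (4.6 to 11.9) from 19 UMIs, which gives a ratio of 0.209 (0.121 to 0.341). Without cells of 10 or more erythroid UMIs the difference was −2.26 on the log2 scale, beside −2.26 with them. The share of thinned macrophages with a UMI was 11% (7.62 to 15.3) in control and 2.41% (0.976 to 4.91) in LPS, and 26.7% and 4.81% without thinning.

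Lower *Slc40a1* levels in LPS were not limited to macrophages. Its interval lay below 1 in 7 of the 7 clusters with at least 50 UMIs of it. Cluster 0 fibroblasts went from 13.6 CPM (12.8 to 14.3) to 5.22 CPM (4.71 to 5.77), a ratio of 0.385 (0.342 to 0.432), and the unnamed cluster 2, where a list of mural cell markers summed highest, from 20.7 to 6.67 CPM, a ratio of 0.322. Among these 7, cluster 3 had the ratio closest to 1, 0.686 (0.521 to 0.898), from 22.6 CPM (19.2 to 26.4) to 15.5 CPM (12.4 to 19.2). The order of the clusters differed between the libraries. Macrophages were above cluster 3 in control by a ratio of 1.62 (1.26 to 2.07). In LPS cluster 3 read 15.5 CPM and macrophages 7.64, and cluster 3 and the next in order, cluster 9, could not be told apart. In the endothelial clusters 4 and 5, *Slc40a1* stood at 50.4% and 66.0% of its cluster 0 level in control, and at 70.8% and 88.4% in LPS. The median of 8 fibroblast markers stood at 30.6% and 26.8% there in control, and at 24.7% and 21.3% in LPS. In clusters 2, 3 and 6, *Slc40a1* was above its cluster 0 level in both libraries. The part of free fibroblast RNA in the *Slc40a1* values was not tested.

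*Fth1* and *Hmox1*, for iron storage and for release of iron from heme, were both highest in macrophages, in both libraries. *Fth1* was at 49364 CPM in control and 38628 CPM in LPS macrophages, and between 3245 and 9089 CPM in the other clusters numbered 0 to 9. Its control level in macrophages was 6.0 (5.88 to 6.13) times that of cluster 8, the next in order. Across the other clusters numbered 0 to 8, *Fth1* stood at 8.9% to 16.7% of the macrophage level in control, where the median macrophage marker stood at 0.449% to 1.09%. The LPS level over the control level was 0.783 (0.776 to 0.789) in macrophages and between 1.01 and 1.26 in the others numbered 0 to 9, highest in the endothelial cluster 5, which went from 4564 to 5732 CPM. Cluster 10, with 16 and 26 cells, is left out of these ranges for its size, and its *Fth1* ratio was 0.811 (0.749 to 0.879).

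*Hmox1*, the enzyme that breaks heme down, was at 839 CPM (807 to 872) in control macrophages and 626 CPM (596 to 658) in LPS ones, a ratio of 0.747 (0.701 to 0.795). Its thinned share of macrophages with a UMI was 77.2% in control and 55.5% in LPS. The largest relative differences were elsewhere, in the fibroblasts of cluster 7, where interferon markers summed highest, at 94.5 and 31.6 CPM (0.334, 0.235 to 0.467), and in the endothelial cluster 5, at 144 and 62 CPM (0.431, 0.373 to 0.497). Cluster 0 went from 71.8 to 47.2 CPM, a ratio of 0.657. Cluster 3 went the other way, from 87.4 CPM (80.7 to 94.6) to 109 CPM (101 to 119), a ratio of 1.25 (1.12 to 1.4).

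The macrophage values depend on the scale, because the median of all genes with at least 50 UMIs was itself lower in LPS macrophages, with a log2 ratio of −0.31. The same shift was −0.13 in cluster 0, −0.12 in cluster 2 and within 0.09 of 0 in the other clusters. Taken relative to that median, the macrophage ratio was 0.968 for *Fth1*, 0.924 for *Hmox1* and 0.258 for *Slc40a1*. On this scale *Fth1* and *Hmox1* in macrophages stood close to the median gene, while *Slc40a1* stayed well below it.

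*Tfrc*, which takes up iron bound to transferrin, was highest in cluster 3, at 62.7 CPM (57 to 68.8) in control and 66 CPM (59.4 to 73.2) in LPS. The ratio there was 1.05 (0.914 to 1.21), so a difference was not detectable at this depth. Cluster 3 was 4.03 (1.94 to 10.1) times the next cluster in control and 3.57 (2.62 to 4.96) times in LPS. Macrophages read 13.8 and 18.5 CPM, with a ratio of 1.34 whose interval, 0.865 to 2.08, included 1. Relative to the median gene the macrophage ratio was 1.66, and the thinned shares with a UMI were 3.2% (1.47 to 5.99) and 6.9% (4.26 to 10.5). The fibroblast clusters 0 and 1 were higher in LPS, at ratios of 1.45 (1.28 to 1.64) and 1.67 (1.37 to 2.05), and so were cluster 2, at 2.04 (1.39 to 3.05), and the endothelial cluster 5, from 17 to 51 UMIs and to 11.2 CPM (2.8, 1.59 to 5.17). The cluster 5 difference depended on the depth used, with shares of cells with a *Tfrc* UMI of 1.71% and 1.83% at 3000 UMIs, 0.571% and 2.48% at 1500 UMIs and 4.57% and 11.1% without thinning. The thinned shares rest on 11 cells or fewer in a library, and no order is read from them.

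**Figure D2:**
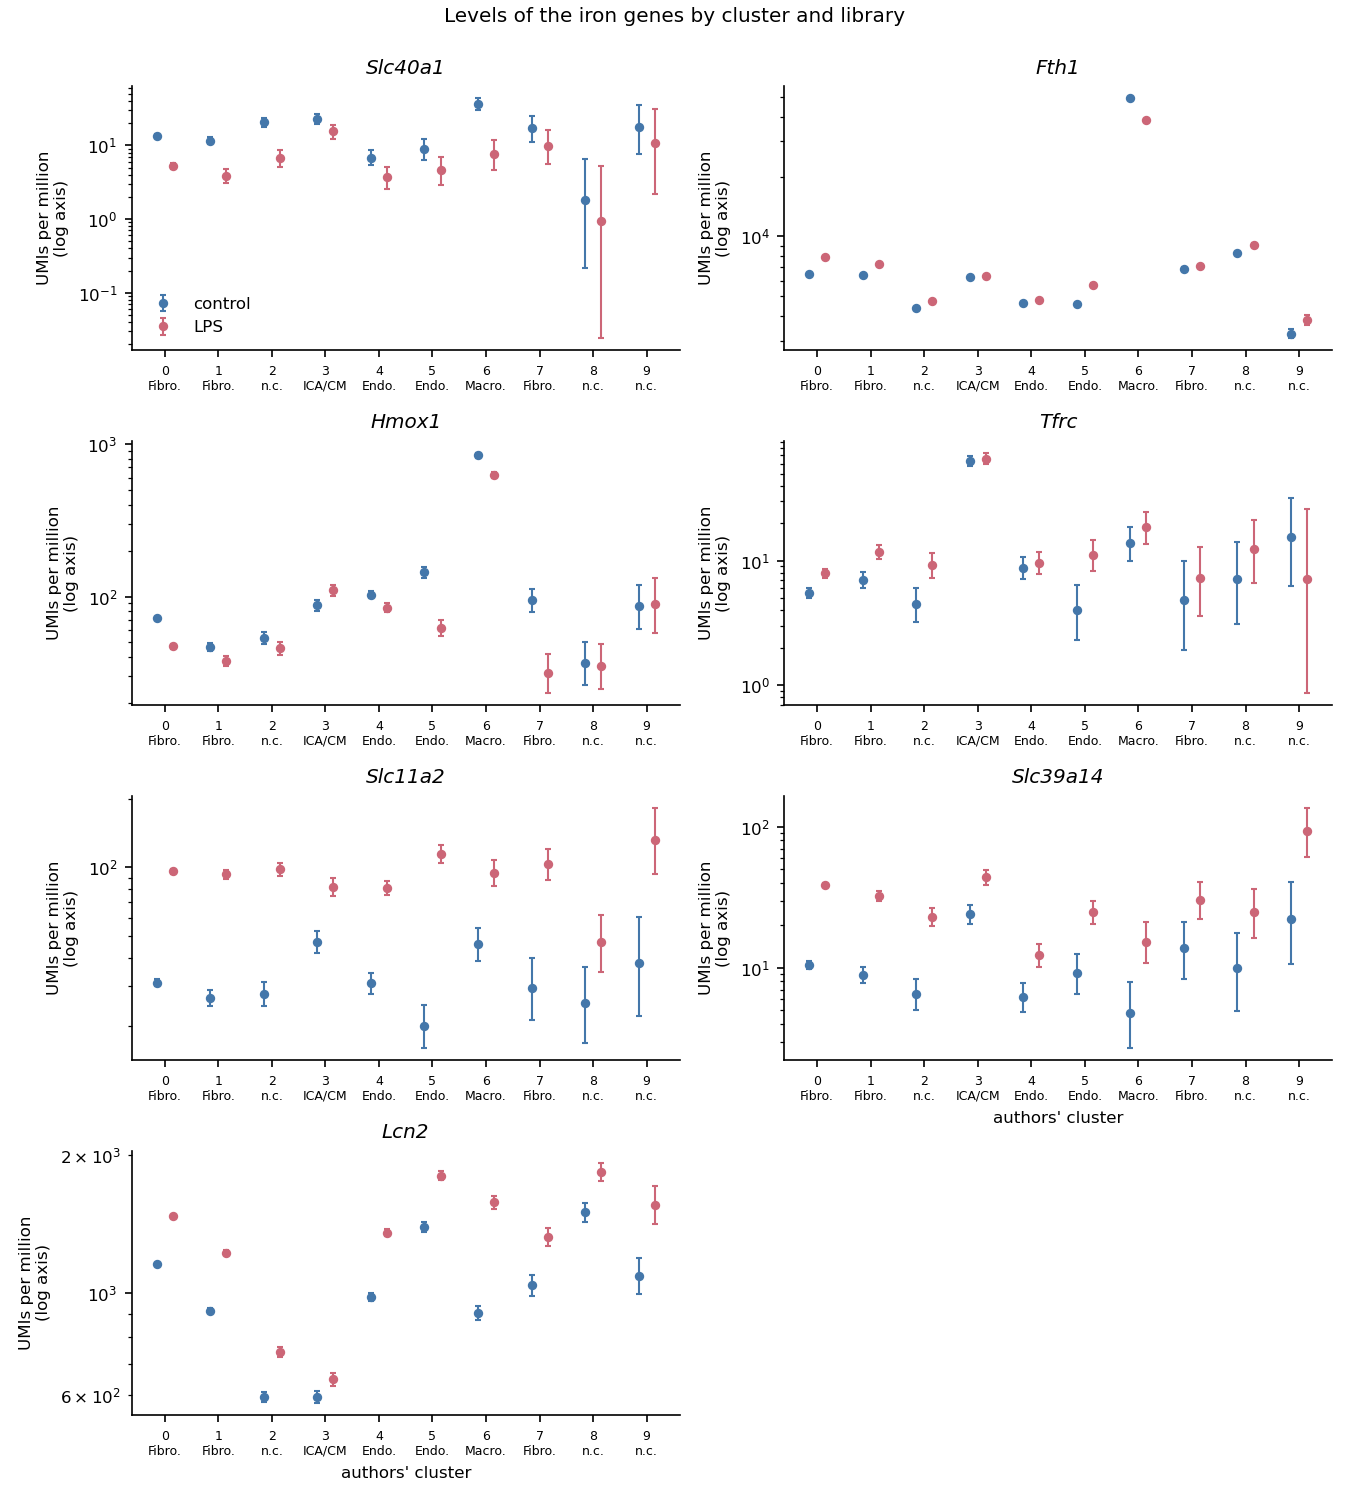
Levels of the other iron genes in the authors' clusters 0 to 9 in the control (blue) and LPS (red) libraries, as UMIs per 1000000 UMIs of the cluster on log axes that differ between panels, with exact 95% Poisson intervals. *Fth1* and *Hmox1* stand highest in macrophages (49364 and 839 in control), *Tfrc* in cluster 3 (62.7), and *Slc11a2* is higher in LPS in every cluster shown.

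*Slc11a2*, the divalent metal transporter DMT1, was higher in LPS in 10 of 10 clusters numbered 0 to 9, each with an interval above 1, and by at least 2-fold in 8 of them. In control no cluster was above the 46.8 CPM of cluster 3. In LPS the levels ran from 46.7 CPM in cluster 8 to 132 CPM in cluster 9. Cluster 0 fibroblasts went from 31 CPM (29.8 to 32.1) to 95.7 CPM (93.5 to 98), a ratio of 3.09 (2.96 to 3.23), and their thinned share with a UMI from 8.91% to 25.5%. The endothelial cluster 5 had the largest ratio, 5.71 (4.53 to 7.27), from 85 to 520 UMIs and to 114 CPM, with thinned shares of 4.57% (2.64 to 7.32) and 30.0%. Cluster 3 had the smallest, 1.75 (1.51 to 2.02), from 46.8 to 81.7 CPM. In control, cluster 3 and macrophages, the next in order, could not be told apart (ratio 1.02, 0.835 to 1.25). In clusters 2 to 6 and 8, *Slc11a2* stood at 64.6% to 151% of its cluster 0 level in control and 48.8% to 119% in LPS. The median of 8 fibroblast markers stood at 26.8% to 37.2% and 21.3% to 47.5% there. LPS cluster 8, on 49 UMIs, stood at 48.8% beside 47.5%. The part of free fibroblast RNA in these values was not tested.

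*Slc39a14*, the transporter ZIP14, which takes up iron not bound to transferrin as well as zinc, was also higher in LPS. Its interval lay above 1 in 8 of the 8 clusters with at least 50 UMIs, and the ratio was at least 2 in 6 of them. Cluster 0 went from 10.5 CPM (9.81 to 11.2) to 38.7 CPM (37.3 to 40.2), a ratio of 3.7 (3.44 to 3.99), with 3.18% and 10.7% of thinned cells holding a UMI. Macrophages read 4.82 and 15.3 CPM on 15 and 38 UMIs, a ratio of 3.17 (1.71 to 6.21). The smallest ratios were 1.83 (1.5 to 2.25) in cluster 3, at 23.9 and 43.8 CPM, and 1.97 (1.45 to 2.69) in the endothelial cluster 4, at 6.2 and 12.2 CPM. In macrophages *Slc39a14* stood at 46% and 39.5% of its cluster 0 level and in cluster 4 at 59.3% and 31.6%, where the median fibroblast marker stood at 35.2% and 29.1% and at 30.6% and 24.7%. The part of free fibroblast RNA in these values was not tested.

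*Lcn2*, a secreted protein that binds iron-loaded siderophores of bacteria, was abundant in every cluster. Levels in clusters 0 to 9 ran from 592 CPM in cluster 2 to 1498 CPM in cluster 8 in control and from 648 CPM in cluster 3 to 1835 CPM in cluster 8 in LPS. Its interval lay above 1 in 10 of these 10 clusters, yet no ratio reached 2, from 1.09 (1.04 to 1.14) in cluster 3 to 1.74 (1.66 to 1.83) in macrophages, which went from 903 to 1573 CPM. Relative to the median gene the macrophage ratio was 2.15. Cluster 0, with most of the cells, went from 1153 to 1469.6 CPM, a ratio of 1.27 (1.26 to 1.28). In clusters 2 to 6 and 8, *Lcn2* stood at 51.3% to 129.9% of its cluster 0 level in control, where the median of 8 fibroblast markers stood at 26.8% to 37.2%. In LPS these were 44.1% to 124.9% and 21.3% to 47.5%. The lowest in LPS were cluster 3, at 44.1% beside 36.6%, and cluster 2, at 50.4% beside 38.6%. The highest single marker in LPS stood at 53.2% in cluster 3 and 77.7% in cluster 2. The part of free fibroblast RNA in these values was not tested.

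**Figure D3:**
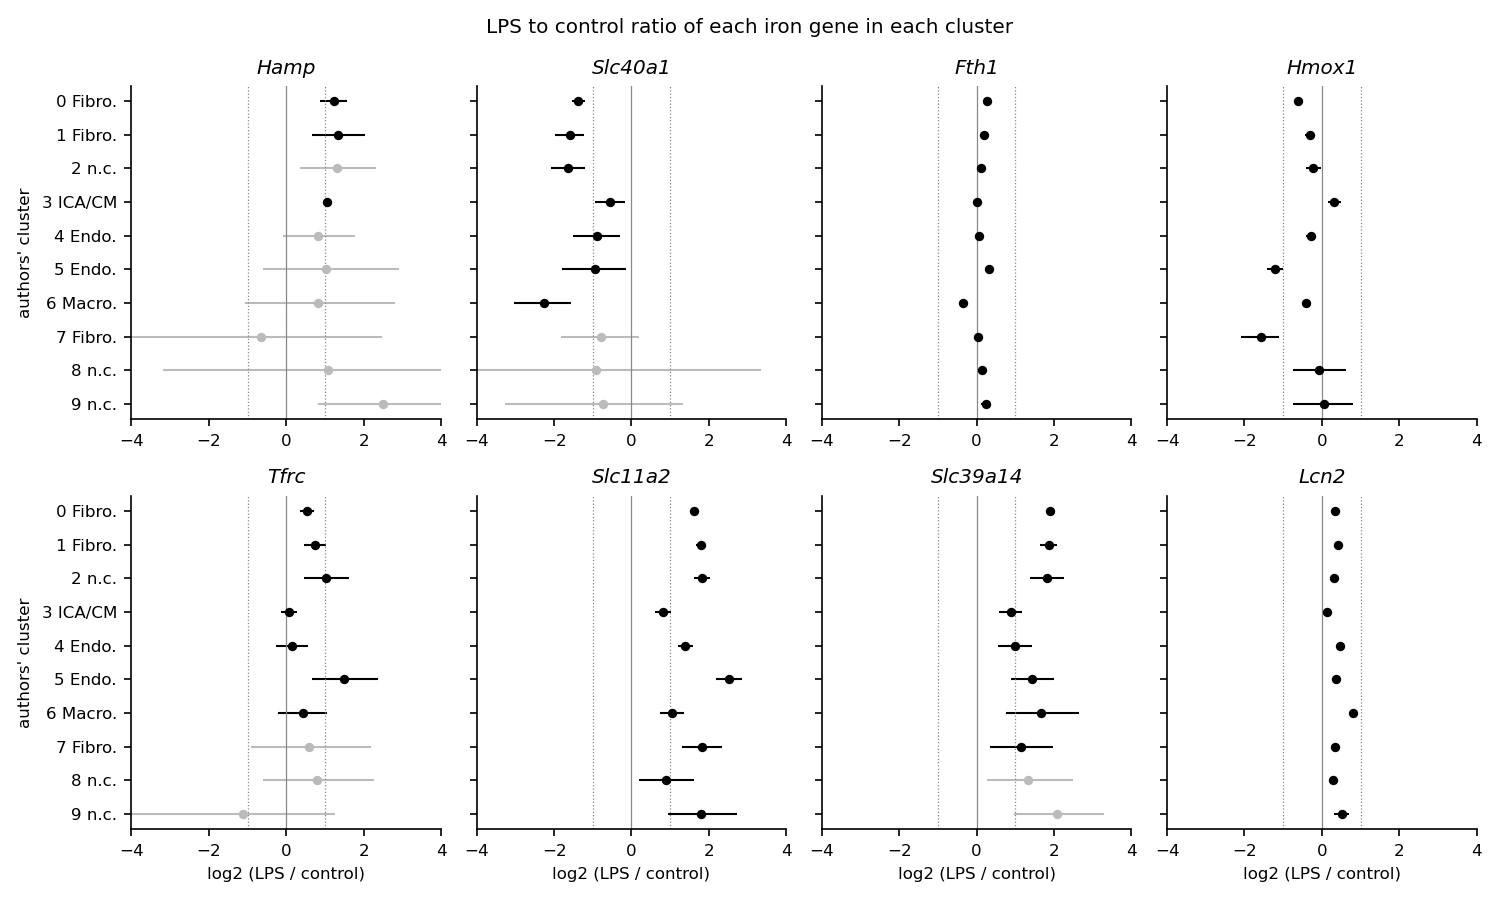
Log2 of the LPS to control ratio of CPM for each iron gene in the authors' clusters 0 to 9, with exact 95% intervals that cover counting error only and are cut off at the axis ends. Grey marks fewer than 50 UMIs over both libraries, and dotted lines mark 2-fold. *Slc11a2* lies right of 0 in 10 clusters, *Slc40a1* left of 0 in the 7 black ones, and *Fth1* in macrophages (−0.35) is its only black point left of 0.

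Set against all genes, the number of iron genes past 2-fold was as follows, counting genes of 50 UMIs or more in that cluster. As the genes were picked with these values known, the counts say nothing about iron genes in general. In cluster 0, 3 of 8 were higher, *Hamp*, *Slc39a14* and *Slc11a2*, where 3.44% of all genes were, and 1 was lower, *Slc40a1*, where 9.1% were. The *Hamp* count of clusters 0 and 1 is that of a gene near 1% of its cluster 3 level, as given above, and is not read as a fibroblast change. The same 3 and 1 genes were past 2-fold in cluster 1, against 3.23% and 5.09% of all genes, and over all cells, against 3.37% and 8.13%. In cluster 3, *Hamp* was the 1 gene of 8 that was higher and none was lower, against 1.7% and 1.69%. Its log2 ratio of 1.06 fell to 0.91, under 2-fold, without the 8% of cells with the most UMIs. In macrophages 2 of 7 were higher, *Slc39a14* and *Slc11a2*, against 4.82%, and 1 lower, *Slc40a1*, against 12.3%. *Tfrc*, *Slc39a14* and *Slc11a2* were higher in cluster 2, against 2.86%, with *Slc40a1* lower, against 4.28%, and the same 3 were higher in cluster 5, against 4.24%, with *Hmox1* lower, against 4.56%. In cluster 4, *Slc11a2* was higher, against 2.65%, and none of 7 was lower, against 4.08%. Cluster 7 had 2 of 5 higher, *Slc39a14* and *Slc11a2*, against 4.7%, and *Hmox1* lower, against 3.45%. Cluster 9 had 1 of 4 higher, *Slc11a2*, against 2.69%, and 0 lower, against 2.81%; clusters 8 and 10 had 0 of 4 and 0 of 2 in either direction, against 2.48% and 1.67% and against 3.52% and 0.971%.

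Other iron genes were read from a list of 51, of which 50 were in the gene table. In cluster 0, 8 of the 45 with at least 50 UMIs were higher by 2-fold and 2 lower, against 3.44% and 9.1% of all genes, with a median ratio of 0.990, where the median of all genes was 0.914. The largest ratios among those higher were in *Bmp2*, a BMP ligand that raises hepcidin transcription, from 7.14 to 78.8 CPM (11, 10.2 to 12), and in *Hp*, haptoglobin, which binds free hemoglobin, from 1.64 to 11.4 CPM (6.96, 5.84 to 8.35). They were followed by *Il6*, the cytokine that raises hepcidin in inflammation, from 1.36 to 8.89 CPM (6.54, 5.39 to 8.0), and *Slc25a37*, the mitochondrial iron importer mitoferrin 1, from 1.48 to 4.7 CPM (3.18, 2.6 to 3.91). The 2 lower genes, named outside the rule for named genes, were *Heph*, a ferroxidase, at a ratio of 0.435 (0.272 to 0.677), and *Steap3*, a ferrireductase, at 0.50 (0.451 to 0.553).

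In cluster 3, 3 of 33 list genes were higher by 2-fold and 0 lower, against 1.7% and 1.69% of all genes, with a median ratio of 1.00 beside 0.996. These were *Bmp2*, from 2.54 CPM on 18 UMIs to 24.6 CPM on 135 UMIs (9.69, 5.9 to 16.8), *Id1*, a gene that BMP signals switch on, from 91.5 to 188 CPM (2.05, 1.86 to 2.27), and *Steap4*, a ferrireductase, from 11.2 to 22.4 CPM (2.01, 1.5 to 2.7). The *Bmp2* level of cluster 3 was below that of cluster 0, given above, in both libraries. The median of 8 fibroblast markers in cluster 3 stood at 36.2% of cluster 0 in control and 36.6% in LPS. The part of free fibroblast RNA in the cluster 3 *Bmp2* values was not tested. In the endothelial cluster 4, 3 of 38 were higher, against 2.65% of all genes. They were *Bmp2*, from 8.45 to 41.2 CPM, *Il6*, from 1.08 to 3.9 CPM, and *Slc25a37*, from 1.71 to 4.31 CPM. The *Il6* level of cluster 4 was below that of cluster 0, given above, in both libraries. The median of 8 fibroblast markers in cluster 4 stood at 30.6% of cluster 0 in control and 24.7% in LPS. The part of free fibroblast or macrophage RNA in these 3 genes of cluster 4 was not tested. In cluster 4, 1 list gene was lower, against 4.08%, *Slc22a17*, from 12.7 to 6.27 CPM.

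In macrophages, 3 of 30 list genes were higher and 7 lower, against 4.82% and 12.3% of all genes, with a median ratio of 0.727 beside 0.808 for all genes. *Il6* rested on 1 control UMI and 507 LPS UMIs, and its ratio, 635, has a counting interval of 114 to 25139.9. *Slc25a37* went from 2.25 to 48.7 CPM (21.7, 10.2 to 55) and *Bmp2* from 4.82 to 38.2 CPM (7.94, 4.58 to 14.7). *Ncoa4*, the cargo receptor that delivers ferritin for breakdown, went from 138 to 22.9 CPM (0.166, 0.124 to 0.22). Lower genes named outside the rule for named genes were *Il6r*, *Aco1*, *Slc48a1*, *Steap3* and *Slc22a17*, at ratios from 0.217 to 0.427.

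**Figure D4:**
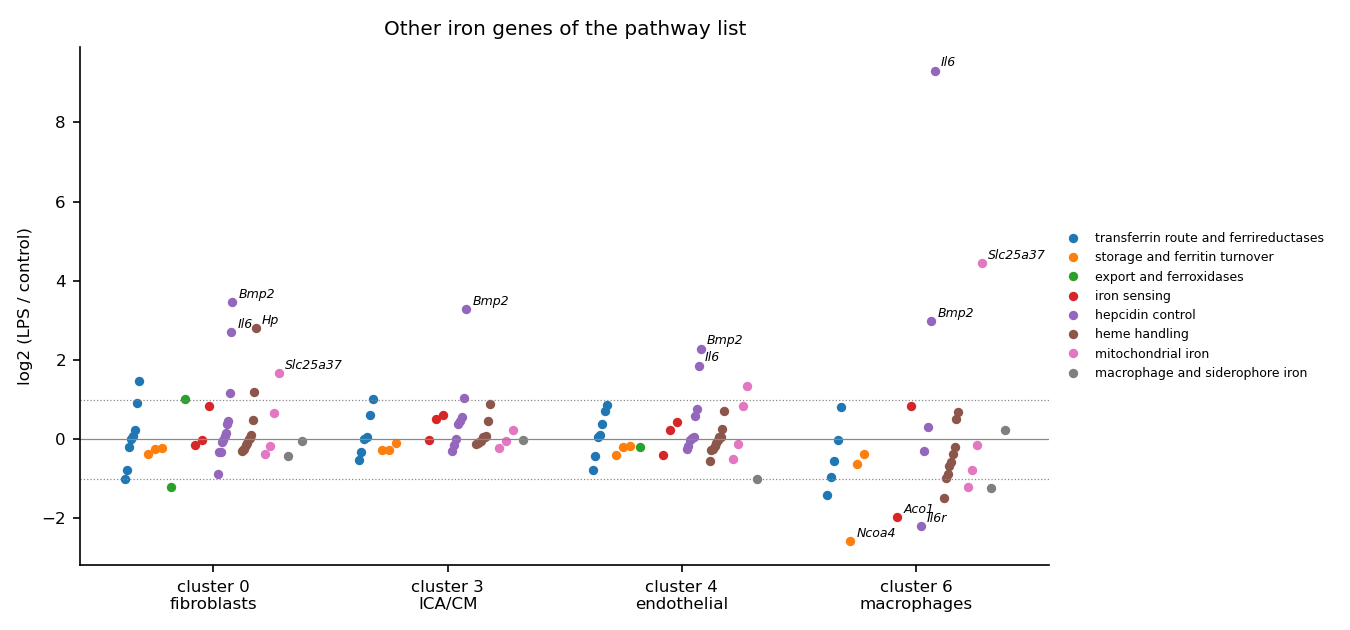
Log2 of the LPS to control ratio for list genes other than the 8, each point a gene with at least 50 UMIs in the cluster, coloured by its group of the list. Dotted lines mark 2-fold, and genes at least 1.5 from 0 are named. *Bmp2* lies above 2-fold in all 4 clusters shown, and *Il6* in macrophages rests on 1 control UMI. The part of free fibroblast RNA in *Bmp2* outside cluster 0, and of free RNA in *Il6* of cluster 4, was not tested.

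The genes whose levels ran most like each iron gene were found by Pearson's r of log2(CPM + 1) over the 20 combinations of clusters 0 to 9 and library, among 11303 genes with at least 200 UMIs. These points share libraries, depth and the free RNA of the droplets, and r is given as a description. *Hamp* stood at 119 and 249 CPM in cluster 3, above all its other points. Other genes high in that cluster therefore reach a high r with it, and no more is read from its r. *Hamp* was closest to *Ankrd1*, a cardiac muscle ankyrin repeat gene (0.970), *Epha3* (0.963) and *Cox6a2*, a heart and muscle form of a respiratory chain subunit (0.958). *Fth1* was closest to *Slc7a8* (0.965), *Mcemp1* (0.949) and the complement gene *C1qb* (0.942), and *Hmox1* to *Lgmn* (0.960), *Ctsd* (0.930) and *Gpnmb* (0.928). *Slc11a2* was closest to *Herc1* (0.942), the kinase gene *Jak2* (0.938) and the NF-kappaB subunit gene *Nfkb1* (0.930). *Tfrc* was closest to *Ppat* (0.892), *Larp1b* (0.891) and *Irx3* (0.875), and *Slc39a14* to *Steap2* (0.863), *Lnx1* (0.855) and *Cx3cl1* (0.847). For *Slc40a1* the closest were *Tsc22d3* (0.825) and *Pttg1ip* (0.824), and for *Lcn2* they were *Gda* (0.796), *Itprid2* (0.793) and *C3* (0.789).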

How the data were processed

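Single-cell 3′ RNA libraries (10X Genomics, v2 kit) were made from 1 control and 1 LPS culture. The deposited values are raw UMI counts per gene and cell, made by the authors with Cell Ranger 2.2.0 and clustered with Seurat 2.3.4, per the submitters' processing notes; genome build and annotation are not given in the sources used here. The authors joined the libraries by canonical correlation analysis before clustering. Total counts were 152624585 (control) and 127580475 (LPS) UMIs, and 2 control and 8 LPS cells without a cluster were left out.

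Counts were summed per cluster and library in Python 3.11.15 (numpy 2.4.6, scipy 1.17.1, pandas 2.3.3, matplotlib 3.10.9). Intervals at 95% are exact Poisson (levels), exact conditional (ratios) and Clopper-Pearson (shares). Shares were taken after thinning cells to 3000 UMIs with seed 1, which left out 79 LPS cells. No filter on cells was added and no doublet caller was run; leaving out the 8% of cells with the most UMIs stands in as an alternative. A gene was counted as past 2-fold at a ratio of at least 2 or at most 0.5 with at least 50 UMIs. The size factor alternative divides ratios by the median ratio of those genes. The procedure was tested on simulated counts.

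The text names the 8 genes, up to 4 genes past 2-fold from the list of 51 in clusters 0, 3, 4 and 6, and the 3 genes most like each of the 8. Some genes that the rule names are not reported here. The members, lists and alternatives were chosen with earlier results of these data known. Promoter windows are from RefSeq (GRCr8), and coordinates apply to them only.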

Additional observations from a re-analysis of the deposited data

Results flagged for a closer look

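On the CPM scale, *Fth1* and *Hmox1* differed in direction between clusters. The *Fth1* ratio of LPS to control was 1.26 in the endothelial cluster 5 and 0.783 in macrophages, and the *Hmox1* ratio was 1.25 in cluster 3 and 0.334 in the fibroblasts of cluster 7. Each of these intervals lay on its own side of 1. Relative to the median gene of the cluster, *Fth1* stood at 1.31 in cluster 5 and 0.968 in macrophages, the latter close to 1. On that scale *Hmox1* stood at 1.26 in cluster 3 and 0.338 in cluster 7. With 1 library per condition the difference between clusters was not tested.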

How the results depend on the processing

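No paired analysis was possible because control and LPS are 1 library each. Among 717 alternative values, 640 stayed within the interval or within 1.5 times the count of the main value and 77 moved; 652 of 657 gene ratios kept their sign, and the others were *Tfrc* in cluster 4 and *Hmox1* in cluster 9, whose intervals include 1. On the log2 scale, dividing by the size factor moved *Fth1* to −0.047 and *Hmox1* to −0.11 in macrophages, and *Lcn2* to 0.48, *Slc39a14* to 2.02 and *Slc11a2* to 1.76 in cluster 0. Without the 8% of cells with the most UMIs, *Hamp* in cluster 3 was 0.91 and *Fth1* in macrophages −0.32. *Fth1* there was −0.37 without mitochondrial genes in the total, and *Hmox1* was −0.33 as the mean of the cells' own CPM and −0.32 after thinning. The thinned share of cluster 3 cells with a *Hamp* UMI was 13.2% and 24.3% at 1500 UMIs, and 44.1% and 51.5% without thinning. With a minimum of 10 UMIs, the genes higher by 2-fold were 2.79% in cluster 3 and those lower 5.81% in cluster 3, 8.96% in cluster 4 and 18.6% in macrophages; the list then had 4 lower genes in cluster 0 and 6 higher in cluster 3. With a minimum of 200 UMIs, the genes lower were 5.81% in cluster 0, 0.552% in cluster 3, 1.96% in cluster 4 and 6.41% in macrophages. With the size factor, 7.31% of macrophage genes were higher and 6.53% lower; list genes were 1 lower in cluster 0, 0 lower in cluster 4 and 6 higher in macrophages, and 2 of the 8 genes were higher in cluster 4. Leaving out cells with a barcode found in both libraries, or with 10 or more erythroid UMIs, both chosen after seeing the data, gave 1.07 and 1.06 for *Hamp* in cluster 3 and −2.22 and −2.26 for *Slc40a1* in macrophages. Depth limits *Hamp* outside clusters 0, 1 and 3, where no library held more than 31 UMIs, and no value here carries biological error.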
